A study of Mus musculus with 12 samples.

Results

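The CXCR3 ligands are the 3 chemokines Cxcl9, Cxcl10 and Cxcl11, and the genes were taken by symbol from tables of 15002 genes. Of the 3 genes, 2 had a row, Cxcl9 (gene ID 17329) and Cxcl10 (gene ID 15945), and both passed the filter on low counts that 11900 genes passed. Cxcl11 (gene ID 56066), which RefSeq annotates as a transcribed pseudogene in this genome build, was not analysed here. RNA was sequenced from IEC4.1 cells, a line of intestinal epithelial cells from a newborn mouse, in 4 groups of 3 libraries. The groups were siR_Ctrl (a scrambled siRNA), siR_Ctrl + IFN-γ, siR_Nostrill (a pool of 3 siRNAs against the long noncoding RNA Nostrill) and siR_Nostrill + IFN-γ. All cells carried an siRNA, so none of the groups was untransfected, and IFN-γ was given for 4 h at 1 ng/ml after 24 h of transfection. The labels give 24 h for every library. Nostrill itself was not analysed here, so its knockdown could not be checked in these libraries. The design asks whether the siRNA pool changes the resting level or the IFN-γ response of these chemokines.

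CXCR3 is the receptor through which activated T cells and natural killer cells are drawn towards inflamed tissue, and its ligands are known as chemokines induced by interferon. IFN-γ binds the receptor chains Ifngr1 and Ifngr2, and the kinases Jak1 and Jak2 pass the signal on to factors that bind gamma-activated sites in target promoters. Irf1 and complexes that hold Stat2 and Irf9 act on interferon-stimulated response elements, and NF-κB adds to the transcription of several chemokine genes. In the gut, epithelial cells are one known source of these chemokines during infection.

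The 3 genes lie side by side on the minus strand of mouse chromosome 5 (GRCm38.p6, RefSeq annotation). Cxcl9 spans chr5:92321331-92328079, Cxcl10 spans chr5:92346638-92348889 and Cxcl11 spans chr5:92359544-92363296. The start site of Cxcl10 is 20.8 kb from that of Cxcl9 and 14.4 kb from that of Cxcl11. The promoter sequences of the first 2 genes are shown because both responded to IFN-γ. Each is the 250 bases before the start site on the minus strand, from RefSeq (GRCm38.p6), at chr5:92328080-92328329 for Cxcl9 and chr5:92348890-92349139 for Cxcl10. Capitals mark every match, on either strand, to 4 of 5 motifs searched, namely the response element core GAAANNGAA, the NF-κB core GGGNNTTCC, CCAAT and the TATA-like ATAAATA.
Cxcl9: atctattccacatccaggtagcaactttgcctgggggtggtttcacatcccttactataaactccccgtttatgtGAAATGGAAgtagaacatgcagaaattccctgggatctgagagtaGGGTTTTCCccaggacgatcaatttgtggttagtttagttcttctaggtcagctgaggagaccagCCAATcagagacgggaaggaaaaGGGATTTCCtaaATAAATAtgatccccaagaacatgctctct
Cxcl10: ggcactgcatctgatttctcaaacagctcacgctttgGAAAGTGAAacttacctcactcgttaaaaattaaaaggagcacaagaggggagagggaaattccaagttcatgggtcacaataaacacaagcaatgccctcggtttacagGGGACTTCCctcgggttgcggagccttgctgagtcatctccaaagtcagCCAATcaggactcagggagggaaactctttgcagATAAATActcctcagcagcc
Each window held 1 response element core, at -175 to -167 in Cxcl9 and at -213 to -205 in Cxcl10, counted from the start site. Of 17491 promoters of protein-coding genes of the same length, 6.92% held that core. The NF-κB core was found at 2 places in Cxcl9, at -130 to -122 and at -42 to -34, and at 1 place in Cxcl10, at -103 to -95, against 5.31% of promoters with a match. Both windows held 1 CCAAT, as did 36.3% of promoters, and 1 TATA-like run, as did 4.73%. The gamma-activated site TTCNNNGAA, present in 6.69% of promoters, had no match in these letters in either window. These matches describe the sequence and are not measured binding sites.

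The resting and induced levels of the genes are described first, as FPKM, a level scaled for transcript length and library depth. The reads on genes summed to between 17824306 and 19093204 in a library. Of the 9 epithelial markers fixed for the check, 4 had a row, and only Krt19 had a mean of at least 1 FPKM in any group, while Krt8 had at most 8 reads in a library and Vil1 at most 4. By contrast, 5 of 6 fibroblast markers were at that level in every group, with a summed level from 370.3 to 654 FPKM, and Col1a1, a collagen gene of mesenchymal cells, ranged from 176 to 315 FPKM. The immune marker Ptprc had at most 1 read, the 4 immune markers with a row summed to at most 2.45 FPKM, and the endothelial markers to at most 0.18. The labelled epithelial type was therefore not matched by these markers, and the part this plays in the results was not tested. In RNA from a whole culture, a higher level in each cell cannot be told apart from a larger share of cells that express the gene.

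**Figure D1:**
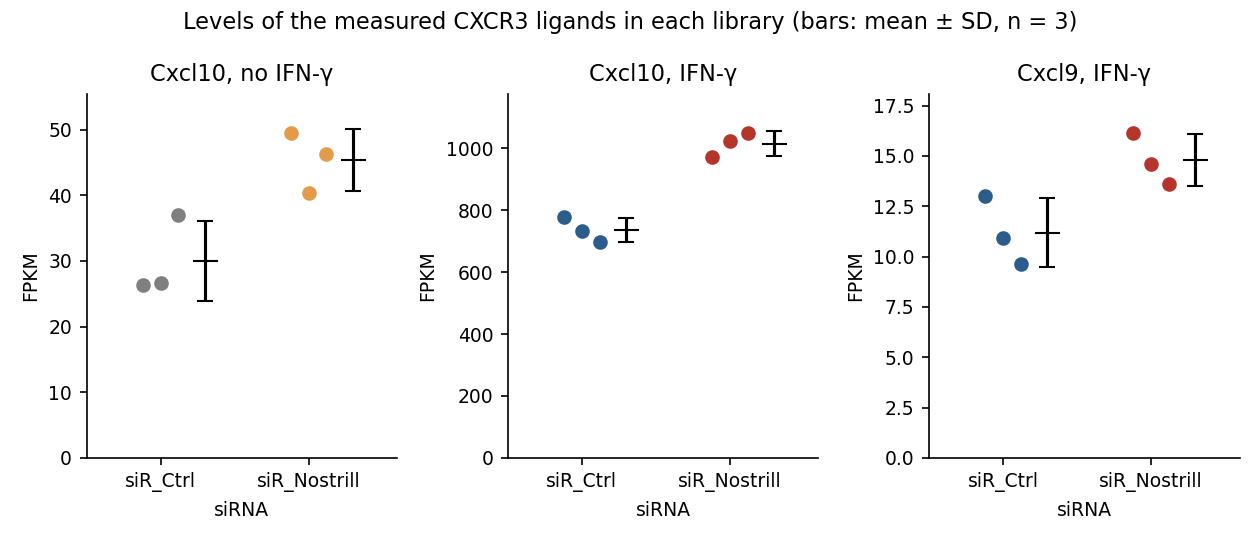
FPKM of Cxcl10 without IFN-γ (left), Cxcl10 with IFN-γ (middle) and Cxcl9 with IFN-γ (right) by siRNA, each point 1 library and each bar the mean ± SD of 3 libraries. In all 3 panels the lowest siR_Nostrill library lies above the highest siR_Ctrl library, and Cxcl9 without IFN-γ is left out because it had at most 2 reads in a library.

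IFN-γ raised both genes, Cxcl10 from a readable resting level and Cxcl9 from almost none. Cxcl10, the chemokine also known as IP-10, was at 26.3, 26.6 and 37.0 FPKM in the siR_Ctrl libraries and at 777, 733 and 697 FPKM in siR_Ctrl + IFN-γ. The lowest library with IFN-γ was far above the highest without. The mean rose from 30.0 ± 6.11 to 736 ± 40.0 FPKM (SD, n = 3), and the fitted change was 25.7-fold (95% interval 20.1 to 32.9), or 4.69 on the log2 scale (SE 0.16). edgeR's quasi-likelihood test gave an adjusted p of 4.01e-09 (Benjamini-Hochberg over 11900 genes). In siR_Nostrill cells Cxcl10 was at 49.5, 40.3 and 46.2 FPKM without and at 970.4, 1022 and 1051 FPKM with IFN-γ. Again the groups did not overlap, and the mean rose from 45.3 ± 4.70 to 1014 ± 40.7 FPKM (SD, n = 3). The change was 22.0-fold (95% interval 17.3 to 28.1), or 4.46 on the log2 scale (SE 0.16), with an adjusted p of 6.19e-09 by edgeR.

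Cxcl9, the chemokine also known as MIG, had 0, 0 and 1 reads in the siR_Ctrl libraries and 645, 558 and 482 reads in siR_Ctrl + IFN-γ. In siR_Nostrill cells it had 0, 0 and 2 reads without and 784, 697 and 658 reads with IFN-γ. The transcript was thus near the limit of detection in all 6 libraries without IFN-γ and readily counted in all 6 with it. In FPKM the induced libraries were at 13.0, 10.9 and 9.64 in siR_Ctrl cells and at 16.2, 14.6 and 13.6 in siR_Nostrill cells. The ratio of summed reads, scaled for the library totals, was 1619.6 in siR_Ctrl cells, with an exact 95% counting interval from 290.3 to 64008, and 1074 in siR_Nostrill cells, with an interval from 297 to 8872. Both intervals cover counting error only and rest on 1 and 2 resting reads, so no fitted fold change is given for this gene. edgeR called the difference in both, with adjusted p-values of 1.10e-08 and 7.96e-09.

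Both measured ligands were thus higher with IFN-γ in siR_Ctrl cells, where 4.71% of all genes tested were called higher and 5.45% in either direction. The same 2 were higher in siR_Nostrill cells, where 5.24% of genes were called higher and 6.78% in either direction. By size of change Cxcl10 ranked 42 in siR_Ctrl cells and 40 in siR_Nostrill cells among the genes tested. By FPKM among all 15002 genes Cxcl10 lay between rank 2102 and rank 3605 without IFN-γ and between rank 102 and rank 171 with it. Cxcl9, listed at 0 in 4 of the 6 libraries without IFN-γ, reached ranks from 5096 to 6659 with it. The induced level of Cxcl10 per length was therefore well above that of Cxcl9 in every library.

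The difference between the siRNAs in IFN-γ-treated cells was small beside the induction. Cxcl10 was above its siR_Ctrl + IFN-γ level in all 3 siR_Nostrill + IFN-γ libraries, where the lowest was at 970.4 FPKM against a highest of 777 FPKM. The fitted difference was 1.33-fold (95% interval 1.08 to 1.64), or 0.41 on the log2 scale (SE 0.14), with an adjusted p of 0.190 by edgeR (0.0124 before adjustment). Cxcl9 was also higher in all 3 libraries, the lowest at 13.6 FPKM against a highest of 13.0 FPKM. Its difference was 1.26-fold (95% interval 0.966 to 1.65), or 0.34 on the log2 scale (SE 0.18), with an adjusted p of 0.414 by edgeR. Neither of the 2 ligands passed the threshold, which 0.429% of all genes passed in either direction and 0.185% as higher. Of all genes tested, 14.6% had every siR_Nostrill + IFN-γ library above every siR_Ctrl + IFN-γ library, as both ligands had, and 6.87% were higher at an unadjusted p under 0.05, as Cxcl10 was.

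Without IFN-γ, Cxcl10 was again higher in the siR_Nostrill libraries, the lowest at 40.3 FPKM and the highest siR_Ctrl library at 37.0 FPKM. In the deposited TPM these groups overlapped, with siR_Nostrill replicate 2 at 51.3 TPM below siR_Ctrl replicate 3 at 53.5 TPM. The difference was 1.55-fold (95% interval 1.25 to 1.93), or 0.63 on the log2 scale (SE 0.14), with an adjusted p of 0.143 by edgeR (0.00101 before adjustment). It did not pass the threshold, which 0.218% of genes passed in either direction and 0.0756% as higher. A complete separation of the groups in FPKM with siR_Nostrill higher was found for 10.2% of genes, and 6.19% were higher at an unadjusted p under 0.05. For Cxcl9 the comparison rested on 1 read against 2 reads, a ratio of 2.00 with an exact 95% counting interval from 0.104 to 118, so no difference was detectable at this depth.

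The siR_Nostrill difference in Cxcl10 passed the threshold in some alternative fits and not in others. Cxcl10 has a short transcript, with an effective length of 868 bases against 2671 for Cxcl9, both taken from the ratio of counts to FPKM. The libraries differed in the balance of short and long transcripts, as the ratio of summed TPM to summed FPKM ran from 1.26 to 1.75, with the highest value in siR_Ctrl replicate 1. Without IFN-γ the 729 genes within 20% of the length of Cxcl10 had a median difference of 0.25 on the log2 scale in favour of siR_Nostrill, beside 0.01 over all genes. With IFN-γ their median was -0.13, beside 0.00 over all genes. Cxcl10 was above the median of genes of its length in both, but its place among those genes is not given.

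After removal of the length trend the difference with IFN-γ was 0.51 with an adjusted p of 0.0183, where 6.18% of genes were called higher, and the difference without IFN-γ was 0.37 with an adjusted p of 0.182. With the TPM to FPKM ratio as a covariate in edgeR, Cxcl10 was called with IFN-γ (0.47, adjusted p 0.000492) and without (0.52, adjusted p 0.00679). Cxcl9 was called with IFN-γ in that fit (0.39, adjusted p 0.0133). That fit also called 10.9% of all genes higher with IFN-γ and 2.33% higher without. DESeq2 called Cxcl10 without IFN-γ (0.63, adjusted p 0.00467), where it called 1.3% of genes higher, and did not call it with IFN-γ, where it called 2.72% of genes higher and 2.74% lower. The sign of the Cxcl10 difference was positive in all 23 alternatives in each of these comparisons. These alternatives refit the same libraries, so the shared sign is not independent support for a difference.

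**Figure D2:**
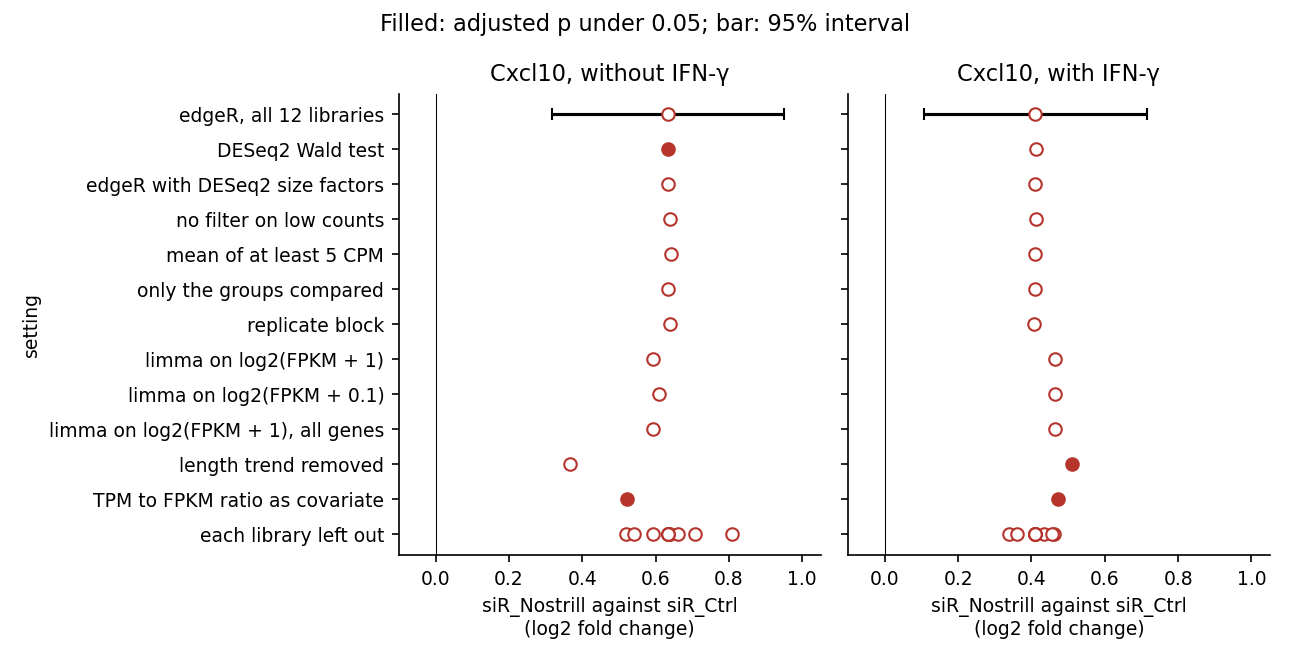
Log2 fold change of Cxcl10 for siR_Nostrill against siR_Ctrl without (left) and with IFN-γ (right) under each setting, filled where the adjusted p is under 0.05, with the 95% interval of the edgeR fit over all 12 libraries. All points lie to the right of 0, from 0.37 to 0.81 without IFN-γ and from 0.34 to 0.51 with it, and leaving out any one library gave no call. The settings refit the same libraries and are not independent of each other.

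The interaction asks whether the IFN-γ response itself differed between the siRNAs. For Cxcl10 the response was lower in siR_Nostrill cells by 0.22 on the log2 scale (interaction -0.22, SE 0.20, 95% interval -0.66 to 0.21), with an adjusted p of 0.520 by edgeR. The 729 genes within 20% of the length of Cxcl10 had a median interaction of -0.39, beside 0.01 over all genes. No gene passed the threshold for the interaction (0% of 11900 genes), with 1277 genes at an unadjusted p under 0.05, none called by DESeq2 and 1 with the covariate. With the length trend removed the sign for Cxcl10 turned to 0.15, and with the covariate the value was -0.05. Leaving out 1 library moved it from -0.40 without siR_Ctrl replicate 3 to -0.11 without siR_Ctrl replicate 1, and it was -0.13 without siR_Nostrill replicate 1, with no adjusted p under 0.340 by edgeR. The interaction was not read for Cxcl9, whose resting levels rest on 3 reads in all.

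The proportion of the 2 ligands within a library does not depend on the library total, but it can shift with the balance of short and long transcripts. The ratio of Cxcl10 to Cxcl9 FPKM was 59.7, 67.2 and 72.3 in siR_Ctrl + IFN-γ and 60.1, 70.02 and 77.4 in siR_Nostrill + IFN-γ. The groups overlapped, with means of 66.4 ± 6.35 and 69.1 ± 8.70 (SD, n = 3). The difference of 0.06 on the log2 scale gave p = 0.700 in an exact two-sided permutation test, where 3 libraries against 3 cannot go below 0.10. With the length trend removed, the siR_Nostrill difference with IFN-γ was 0.51 for Cxcl10 and 0.33 for Cxcl9. The ratio itself was not recomputed with that trend removed.

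Cxcl10 went from a small share of the chemokine transcripts to one of the 2 largest. Among 18 chemokine genes with a row, it held 2.94%, 2.42% and 3.34% of their summed FPKM in the siR_Ctrl libraries and 3.63%, 3.32% and 3.97% in the siR_Nostrill libraries. With IFN-γ it held 30.4%, 30.5% and 32.02% in siR_Ctrl cells and 31.6%, 33.3% and 34.4% in siR_Nostrill cells. Its place was therefore between 7 and 8 of 18 at rest and 1 or 2 of 18 with IFN-γ. The other gene at the top was Ccl2, a chemokine that draws monocytes, at 369 ± 56.2 FPKM in siR_Ctrl and 421 ± 37.0 FPKM in siR_Nostrill cells (SD, n = 3). With IFN-γ, Ccl2 was at 749 ± 70.9 FPKM in siR_Ctrl and 923 ± 35.5 FPKM in siR_Nostrill cells. The level of Cxcl10 relative to Ccl2 was 0.959, 0.957 and 1.04 in siR_Ctrl + IFN-γ libraries and 1.03, 1.08 and 1.19 in siR_Nostrill + IFN-γ libraries, so these neighbours in the order overlapped in siR_Ctrl cells. Cxcl9 held from 0.443% to 0.526% of the summed level with IFN-γ, at place 9 or 10.

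Of the other chemokines fixed as a list, 16 of 21 had a row and 13 were tested. In siR_Ctrl cells 5 rose with IFN-γ and none fell by edgeR, beside 4.71% of all genes called higher. The 4 largest changes were those of Ccl8 (2.75, SE 0.65, adjusted p 0.0289), Ccl17 (1.76, SE 0.41, adjusted p 0.0282), the fractalkine gene Cx3cl1 (1.41, SE 0.08, adjusted p 4.27e-07) and Ccl2 (1.08, SE 0.15, adjusted p 0.000819). In siR_Nostrill cells edgeR called Cx3cl1 (1.34, SE 0.08) and Ccl2 (1.11, SE 0.15), beside 5.24% of all genes called higher. It called 0 of the 13 for the interaction, as it called 0 of all genes. At an unadjusted p under 0.05 there were 2 of the 13, beside 1277 of 11900 genes, and DESeq2 called 0. DESeq2 called 7 higher for IFN-γ in siR_Ctrl cells, beside 4.94% of all genes, and 3 in siR_Nostrill cells, beside 6.64%. The median change over the list was 0.67 in siR_Ctrl and 0.40 in siR_Nostrill cells, beside -0.01 and 0.00 over all genes tested. The 729 genes within 20% of the length of Cxcl10 had medians of 0.15 and -0.25 in these comparisons. The part of transcript length in the list's medians was not tested. Between the siRNAs no chemokine of the list passed the threshold, with or without IFN-γ, by edgeR, and at an unadjusted p under 0.05 there were 3 higher and none lower in each, beside 6.87% of all genes higher with IFN-γ and 6.19% without. DESeq2 called 1 of them, Ccl5, in each, a gene named after its values were seen, beside 2.72% of all genes called higher with IFN-γ and 1.3% without.

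**Figure D3:**
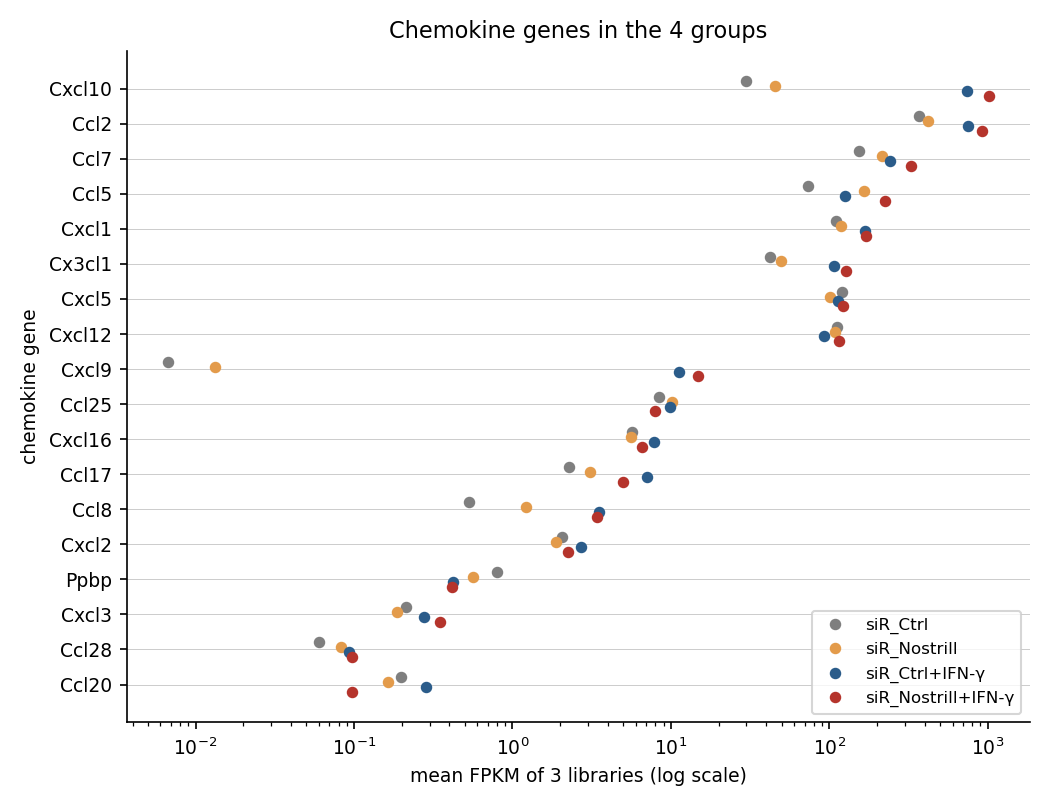
Mean FPKM of 3 libraries for each of 18 chemokine genes on a log axis, coloured by group and ordered by the level in siR_Nostrill + IFN-γ. Cxcl10 goes from 45.3 FPKM in siR_Nostrill to the top of the order in siR_Nostrill + IFN-γ, while in siR_Ctrl + IFN-γ its mean of 736 FPKM is below the 749 FPKM of Ccl2, and Cxcl9 from near 0 to 11.2 and 14.8 FPKM.

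Of the genes for reception and processing of these ligands, Ackr3, an atypical receptor that takes up Cxcl11 and Cxcl12, was the only one of 3 with a row. It rose with IFN-γ from 39.6 ± 0.265 to 51.1 ± 2.48 FPKM in siR_Ctrl cells (0.43, SE 0.09, adjusted p 0.0118) and by 0.47 in siR_Nostrill cells (adjusted p 0.00636). Its difference between the siRNAs was 0.09 with and 0.06 without IFN-γ, with adjusted p-values of 0.684 and 0.713 by edgeR.

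The genes of IFN-γ signalling were measured for 9 of 10 members. In siR_Ctrl cells, where 4.71% of all genes were called higher, 5 rose and none fell, among them Irf1 (3.57, SE 0.10), Stat2 (3.18, SE 0.11) and Irf9 (2.31, SE 0.09), factors that act on response elements. In siR_Nostrill cells, where 5.24% were, 6 rose, with 3.23 for Irf1, 2.91 for Stat2 and 1.77 for Irf9. Irf1 was the member with the highest mean level, at 578 ± 15.6 FPKM in siR_Ctrl + IFN-γ and 543 ± 6.96 FPKM in siR_Nostrill + IFN-γ. Irf1 did not pass the threshold between the siRNAs, with a difference of -0.15 with IFN-γ (adjusted p 0.495 by edgeR).

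Ifngr2, a chain of the IFN-γ receptor, was the one member called between the siRNAs in IFN-γ-treated cells, by edgeR, beside 0.185% of all genes called higher, as by DESeq2, beside 2.72%. It was at 33.9, 33.2 and 33.4 FPKM in siR_Ctrl + IFN-γ and at 51.3, 52.9 and 48.5 FPKM in siR_Nostrill + IFN-γ, with no overlap, as for 14.6% of all genes. The difference was 0.54 (SE 0.09, adjusted p 0.0375 by edgeR). Leaving out each library in turn moved the difference between 0.51 and 0.58 and the adjusted p between 0.0210 and 0.175 by edgeR. The call held only without siR_Ctrl replicate 1, without siR_Nostrill replicate 1 or without siR_Nostrill replicate 3, all of them libraries without IFN-γ. Of 11 other settings 9 called Ifngr2, all but a block on replicate number and a fit of only the groups compared. Irf9, the DNA-binding partner of Stat2, was the one called by edgeR without IFN-γ, from 6.16 ± 0.499 to 9.14 ± 1.09 FPKM (0.58, SE 0.09, adjusted p 0.0357), beside 0.0756% of all genes called higher. The call held when siR_Ctrl + IFN-γ replicate 2 or 3 was left out and not in the other 10 fits. Over these 12 fits the difference ran from 0.52 to 0.67, and 6 of 11 other settings called Irf9. DESeq2 called Irf9 and Ifngr2 higher without IFN-γ, beside 1.3% of all genes.

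The genes of the type I interferon response were measured for 10 members. In siR_Ctrl cells 9 rose with IFN-γ, led by Oasl2 (3.76), Irf7 (3.57), Ifit3 (3.40) and Rsad2 (2.69), and in siR_Nostrill cells 8 rose, beside 4.71% and 5.24% of all genes called higher. Isg15, the member with the highest mean level, went from 78.2 ± 25.3 to 375 ± 99.3 FPKM in siR_Ctrl cells. Between the siRNAs without IFN-γ, 3 members were higher and none lower, namely Oasl1 (1.25, SE 0.21, adjusted p 0.0472), Oasl2 (1.10, SE 0.14, adjusted p 0.0189) and Ifit1 (1.03, SE 0.17, adjusted p 0.0384), beside 0.0756% of all genes called higher by edgeR. DESeq2 called 5 members higher, beside 1.3% of all genes. The median over the list was 1.07, beside 0.01 over all genes, and 6 members were higher at an unadjusted p under 0.05, as were 6.19% of all genes. With IFN-γ the median was 0.20 and none was called by edgeR. At an unadjusted p under 0.05 there were 2 members higher, beside 6.87% of all genes. DESeq2 called 2 members higher there, beside 2.72% of all genes. For the interaction the median was -0.51, beside 0.01 over all genes, and neither edgeR nor DESeq2 called a member. At an unadjusted p under 0.05 by edgeR, 4 members were lower and 0 higher, beside 1277 of 11900 genes in either direction. Over all 11900 genes, effective length had a Spearman correlation of -0.65 with the difference without IFN-γ and 0.65 with the interaction. The part of transcript length in the medians of this list was not tested. When each library was left out in turn, the edgeR call of Oasl2 without IFN-γ held in 7 of 12 fits, with an adjusted p of at most 0.111. Ifit1 kept its call in 2 fits and Oasl1 in 1. Both kept it when siR_Ctrl + IFN-γ replicate 2 was left out, and Ifit1 also when siR_Ctrl replicate 3 was. The call of Oasl2 was lost without siR_Ctrl replicate 1, without any of the 3 siR_Nostrill libraries or without siR_Nostrill + IFN-γ replicate 2. Over the 12 fits the differences ran from 0.93 to 1.25 for Oasl2, 0.91 to 1.31 for Ifit1 and 1.02 to 1.42 for Oasl1. Other settings called Oasl2 in 10 of 11, Ifit1 in 9 of 11 and Oasl1 in 4 of 10. Ifnb1, which encodes IFN-β, had at most 1 read in a library and did not pass the filter. Cxcl10 is a known target of both interferon types. Its difference of 0.63 without IFN-γ, which edgeR did not call, lay below the list's median. Any link between the Cxcl10 difference and these genes was not tested.

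**Figure D4:**
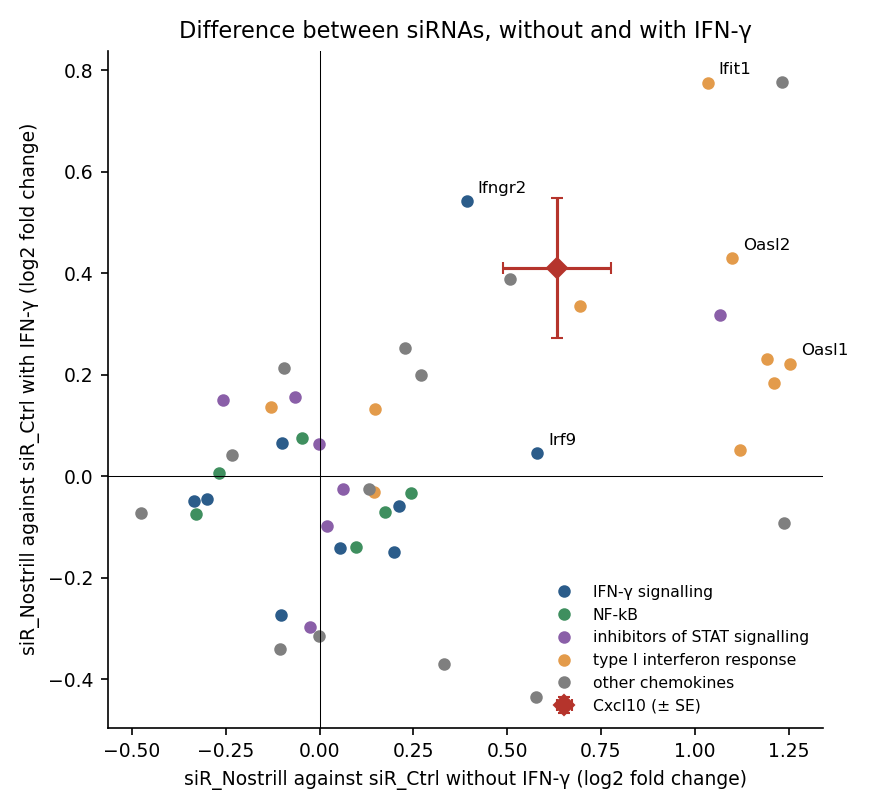
Log2 fold change of siR_Nostrill against siR_Ctrl without (x axis) and with IFN-γ (y axis) for each tested gene of 5 lists, with Cxcl10 as a diamond with its SE. Cxcl10 lies at 0.63 and 0.41, and the 5 genes named are those called in either comparison.

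Of the NF-κB genes all 6 were tested. Nfkbiz, a cofactor of NF-κB, rose with IFN-γ in siR_Ctrl cells (0.92, SE 0.12, adjusted p 0.000453), and Nfkbiz (1.20) and Nfkb1 (0.57) rose in siR_Nostrill cells. These 1 and 2 of 6 stand beside 4.71% and 5.24% of all genes called higher. Over all 12 libraries Nfkb2 had the highest mean level, with group means from 77.02 FPKM in siR_Ctrl to 85.2 FPKM in siR_Nostrill cells, while in both groups with IFN-γ the inhibitor gene Nfkbia, named after its values were seen, was above it (89.2 against 80.8 FPKM in siR_Ctrl and 91.2 against 79.8 FPKM in siR_Nostrill cells). The inhibitors of cytokine signalling were measured for all 7 members, and Usp18 (3.81), Socs1 (2.999) and Socs3 (2.47) rose in siR_Ctrl cells as they did in siR_Nostrill cells (3.07, 2.91 and 2.20), which is 3 of 7 beside the same shares of all genes. Socs1, an inhibitor of the Jak kinases, had the highest mean level of the list over all 12 libraries, though not in the groups without IFN-γ, and was at 91.04 ± 7.68 FPKM in siR_Ctrl + IFN-γ and 93.1 ± 15.4 FPKM in siR_Nostrill + IFN-γ. Between the siRNAs edgeR called none of the genes of these lists, with or without IFN-γ. At an unadjusted p under 0.05 there was 1 inhibitor lower with IFN-γ, beside 7.67% of all genes. Without it there were 1 inhibitor higher and 1 NF-κB gene lower, beside 6.19% of all genes higher and 7.61% lower. DESeq2 called Socs3 lower with IFN-γ, as it did 2.74% of all genes, and Usp18 higher without, as it did 1.3%.

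Along the chromosome, 1 of 8 tested neighbours of the ligands was called for IFN-γ, beside 5.45% of all genes called in siR_Ctrl and 6.78% in siR_Nostrill cells. Of 11 other genes with a row in the cluster or next to it, 3 were not tested. Scarb2, which encodes a lysosomal membrane protein, was the gene called, with 0.34 (SE 0.07, adjusted p 0.0139) in siR_Ctrl and 0.59 (SE 0.07, adjusted p 0.000205) in siR_Nostrill cells. The nearest genes tested on either side, Sdad1 and Nup54, had values of 0.22 and 0.04 in siR_Ctrl cells (adjusted p 0.5002 and 0.844 by edgeR). Art3, which overlaps Cxcl10 on the other strand, had at most 2 reads in any library. The sources used here do not say whether counting used the strand.

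**Figure D5:**
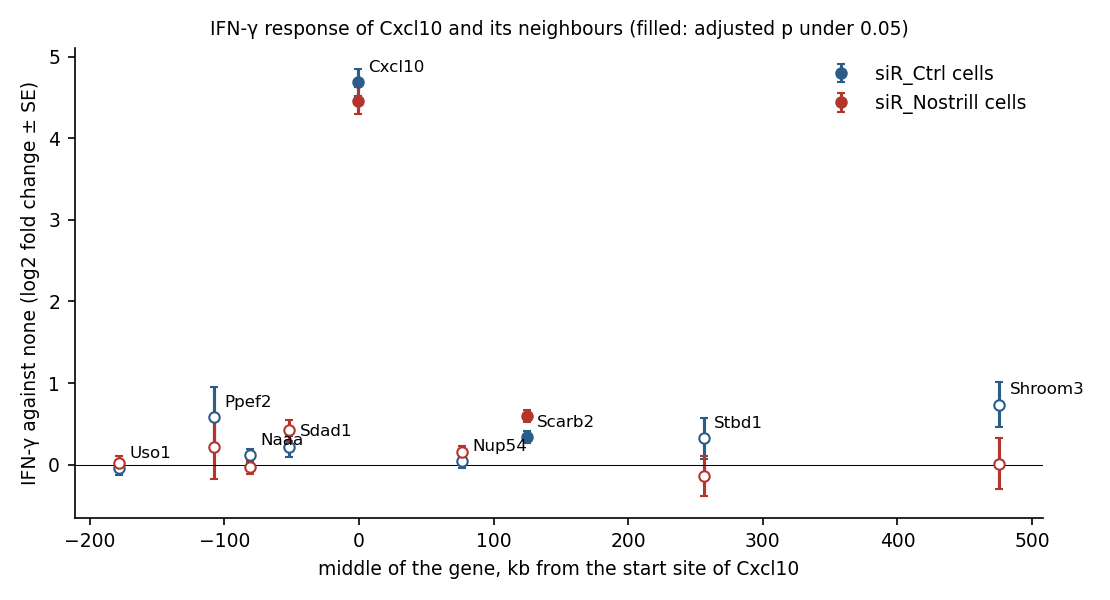
Log2 fold change ± SE for IFN-γ in siR_Ctrl and siR_Nostrill cells against the distance of the gene's middle from the start site of Cxcl10, filled where the adjusted p is under 0.05. Cxcl10 stands at 4.69 and 4.46, while the neighbours lie between -0.14 and 0.73. Cxcl9 is left out for want of resting reads.

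The genes whose log2 CPM pattern over the 12 libraries was most like that of each ligand were listed by Pearson's r, as a description. For Cxcl10 these were Ripk2 (0.998), Tap1 (0.997), Rnf114 (0.997), Myd88 (0.997) and Parp11 (0.996), and for Cxcl9 Gbp2b (0.998), Irgm1 (0.998), Apol6 (0.998), Mpeg1 (0.998) and Parp9 (0.998). The libraries fall into 2 clusters, with and without IFN-γ, and no r within a cluster is given. Cxcl9 and Cxcl10 had 0.993 between them. Without IFN-γ, Cxcl9 had at most 2 reads in a library, so its log2 CPM there was set mostly by the prior count of 2 added before the log. The genes differed widely in size of change. Tap1, a peptide transporter for antigen presentation, rose by 5.37 in siR_Ctrl cells, while Myd88, an adaptor of Toll-like receptors, rose by 1.39 and the kinase Ripk2 by 1.79. Gbp2b and Irgm1, GTPases of cell-intrinsic defence, rose by 7.61 and 4.74. Between the siRNAs edgeR called none of the 10, with adjusted p-values of at least 0.227 without and 0.321 with IFN-γ.

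The siRNAs themselves were compared with the ligand transcripts, because the seed of an siRNA, bases 2 to 8 of its antisense strand, can pair with other messages. The antisense strands are shown as reverse complements of the designed sense strands, 5′ to 3′, with the seed in capitals.
Nostrill-1: aUUAAUGCuucuucccagg
Nostrill-2: aUUUGUGUguuccuggugg
Nostrill-3: aUUAGAACgacuuauaggc
A 7-base site for a seed was looked for over whole protein-coding transcripts of GENCODE vM21. The transcript of Cxcl9 held none. Both transcripts of Cxcl10 held 1 site for Nostrill-3, and the longer one, of 1353 bases, held 1 for Nostrill-2 as well. Of 11680 tested genes with such a transcript, 14.6% held a Nostrill-3 site, 27.5% a Nostrill-2 site and 42.8% a site for any of the 3. The measured level of Cxcl10 was higher, not lower, in the siR_Nostrill libraries, and the part of such sites was not tested.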

How the data were processed

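Groups came from the sample labels. Per gene and library, the files deposited by the authors hold an estimated count, an FPKM and a TPM, for 15002 genes typed as mRNA. Their reads were cleaned with SOAPnuke and mapped by HISAT2 and Bowtie2 to GRCm38.p6. The counting tool is not named in the sources used. Here the deposited estimated counts were rounded, and all 12 libraries entered one quasi-likelihood fit in edgeR 4.0.16 under R 4.3.3, after its default count filter and TMM scaling. P-values were adjusted by Benjamini-Hochberg over the 11900 genes left, with a threshold of 0.05. Levels are the deposited FPKM, and the summed TPM over summed FPKM described the balance of transcript lengths. Alternatives used DESeq2 1.42.0 and limma 3.58.1. Pairs of libraries within a group differed by more than counting noise (chi-square over degrees of freedom 6.46 to 96.5). The triplicates are described as biological, but the labels name no culture of origin, so p-values measure the spread between these libraries. The members and the lists were chosen with earlier results of these data known. Named were the ligands, up to 4 of the largest called changes of a list in a comparison and its gene of highest mean level, the 5 genes most like each ligand, and neighbours, 5 to a side where the tables held them. A gene that this rule would name is not reported here.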

Additional observations from a re-analysis of the deposited data

How the results depend on the processing

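The IFN-γ calls of Cxcl9 and Cxcl10 held under all 23 alternatives in both siRNAs, with a Cxcl10 change from 4.55 to 4.86 in siR_Ctrl and from 4.39 to 4.69 in siR_Nostrill cells. Calls for siR_Nostrill against siR_Ctrl depended on the model. With IFN-γ, Cxcl10 passed with the length trend removed (0.51) and with the TPM to FPKM ratio as covariate (0.47), and Cxcl9 with that covariate (0.39). Without IFN-γ, Cxcl10 passed in DESeq2 (0.63) and with the covariate (0.52). The Cxcl10 interaction reversed to 0.15 with the length trend removed, and the cause was not tested. The ratio of Cxcl10 to Cxcl9 differed by -0.03 to 0.15 on the log2 scale when a library was left out, below 0 without siR_Ctrl + IFN-γ replicate 1 (-0.02) and without siR_Nostrill + IFN-γ replicate 3 (-0.0293). Leaving out a library gave no call of a siR_Nostrill difference in either ligand, with Cxcl10 from 0.34 to 0.46 with and from 0.52 to 0.81 without IFN-γ and Cxcl9 from 0.21 to 0.44 with it. Without siR_Ctrl replicate 1, which had the highest TPM to FPKM ratio, the Cxcl10 difference without IFN-γ was 0.52 (adjusted p 0.416 by edgeR).

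Of the genes of the fixed lists, 1 was called between the siRNAs with IFN-γ. This count was 5 in DESeq2, 2 at a mean of at least 5 CPM, 0 with only the groups compared, 0 with the replicate block, 3 in limma on log2(FPKM + 1) or log2(FPKM + 0.1), 2 in limma without a filter, 9 with the length trend removed and 15 with the covariate. Without IFN-γ 4 were called, against 9 in DESeq2, 0 with only the groups compared, 2 with the replicate block, 2 in limma without a filter, 9 with the length trend removed and 12 with the covariate. Leaving out a library moved these counts between 0 and 2 with and between 0 and 6 without IFN-γ. Over all genes 51 were called with and 26 without IFN-γ, and the alternatives ranged from 0 to 2738 and from 0 to 593. For IFN-γ the count of 649 in siR_Ctrl cells ranged from 341 to 2058 and that of 807 in siR_Nostrill cells from 491 to 2425.

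The replicate block treated same-numbered libraries as pairs. The correlation of their deviations from the group mean ran from -0.49 to 0.73. For libraries with different numbers it ran from -0.81 to 0.77, so the numbers showed no consistent pairing. Deviations from a mean of 3 libraries cannot exclude that cultures were paired. With the block the siR_Nostrill difference in Cxcl10 was 0.41 with (adjusted p 0.216 by edgeR) and 0.64 without IFN-γ (adjusted p 0.165 by edgeR), and the block changed no call of either ligand. Depth limits Cxcl9 without IFN-γ, which had at most 2 reads in a library.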
